A study of Mus musculus with 7 samples.

Results

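The creatine system of skeletal muscle was examined in quadriceps femoris of mice that carried mutant Twinkle and of wild-type mice. The genes were the 4 creatine kinases Ckm, Ckb, Ckmt1 and Ckmt2, the synthesis enzymes Gatm and Gamt, and the creatine transporter Slc6a8. Members were chosen by name, and every probe set that the platform annotation ties to one of these symbols and to no other was used. This gave 10 probe sets for the 7 genes, out of 18193 genes measured by named probe sets on the array. Ckm, Ckmt1 and Slc6a8 had 2 probe sets each and the other 4 genes had 1 each.

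Creatine kinase moves a phosphate group between ATP and creatine, so that phosphocreatine buffers ATP in cells whose demand changes quickly. Ckm is the cytosolic form of muscle and Ckmt2 the mitochondrial form of muscle and heart, while Ckb and Ckmt1 are the cytosolic and mitochondrial forms best known from brain and other tissues. Gatm makes guanidinoacetate from arginine and glycine, and Gamt methylates it to creatine. These steps are best known in kidney and liver, and muscle takes up most of its creatine from blood through Slc6a8.

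The 3 mutant mice were overexpressors of mutant Twinkle, the helicase of mitochondrial DNA, and were 24, 24 and 21 months old at replicates 1, 2 and 3. The 4 wild-type mice were 26, 24, 21 and 23 months old at replicates 1 to 4. The series design names the mutant mice as a model of progressive external ophthalmoplegia, a mitochondrial muscle disease, and the title names a starvation response through FGF21. The promoter that drives the transgene, the strain and the sex of the mice are not given in the sources used here. Each mouse had 1 single-colour Affymetrix array, and the titles call the arrays biological replicates.

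All values are on the log2 scale relative to the probe set's own median over the 7 arrays, as deposited, so 0 is the median array and the values show differences between arrays and no levels. A rough level class was recovered from the spacing of the deposited numbers, and gives the log2 level of the median array as between 2 and 4, between 4 and 8, or between 8 and 16. In the top class lay 9 of 10 general muscle fibre markers and 0 of 9 measured cerebellum markers, which matters because the sample descriptions name cerebellum while titles, source and tissue entries name muscle. Twnk, the Twinkle gene, lay at -0.15, 0.44 and 0.00 in the mutant arrays, against 0.34, -0.13, -0.14 and 0.15 in the wild-type arrays, so that the groups overlapped. No source used here says whether its probe set detects the transgene. Fgf21, the hormone of the title, lay at 2.03, 0.93 and 0.83 in mutant muscle, above -0.43, -0.40, 0.00 and -0.05 in wild type, with a log2 difference of 1.48 ± 0.29 (SE) and a limma adjusted p of 1.00. Arrays also differed apart from genotype. The first axis of variation over 12620 genes of the upper 2 level classes held 54.3% of the variance, and placed mutant replicate 2 and wild-type replicates 1 and 4 on one side and the other 4 arrays on the other. Probe sets that check 18S rRNA had a mean of 3.19 on the first mutant array and of -0.77 to 0.56 on the remaining 6. The beta-actin control read 5 prime minus 3 prime, a sign of RNA quality, was -0.14, -0.01 and -0.10 in mutant muscle, below 0.02, 0.12, 0.12 and 0.08 in wild type, and its part in the differences below was not tested.

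None of the 7 creatine genes passed the test between mutant and wild-type muscle. With limma the adjusted p over all 18193 genes was 1.00 for each of the 7, and 0 genes of the whole array were called (0%). At an unadjusted p under 0.05 there were likewise 0 of the 7, beside 1.41% of all genes (0.742% higher and 0.671% lower in mutant muscle). Mutant and wild-type values overlapped in all 7. They did not overlap in 2.09% of all genes, with the mutant arrays above in 0.907% and below in 1.19%. Per probe set, 0 of the 10 passed at an unadjusted p under 0.05 and 0 of the 10 had separate groups, beside 1.98% and 2.08% of all probe sets. The log2 differences ran from -0.17 for Ckmt1 to 0.19 for Slc6a8 with a median of 0.03, while the median over all genes was -0.01. Both ends rest on the brighter of 2 probe sets. With the mean of all probe sets Ckmt1 differed by -0.03 and Slc6a8 by 0.09. These arrays bound the differences more tightly for some members than for others, as the 95% intervals below show.

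**Figure D1:**
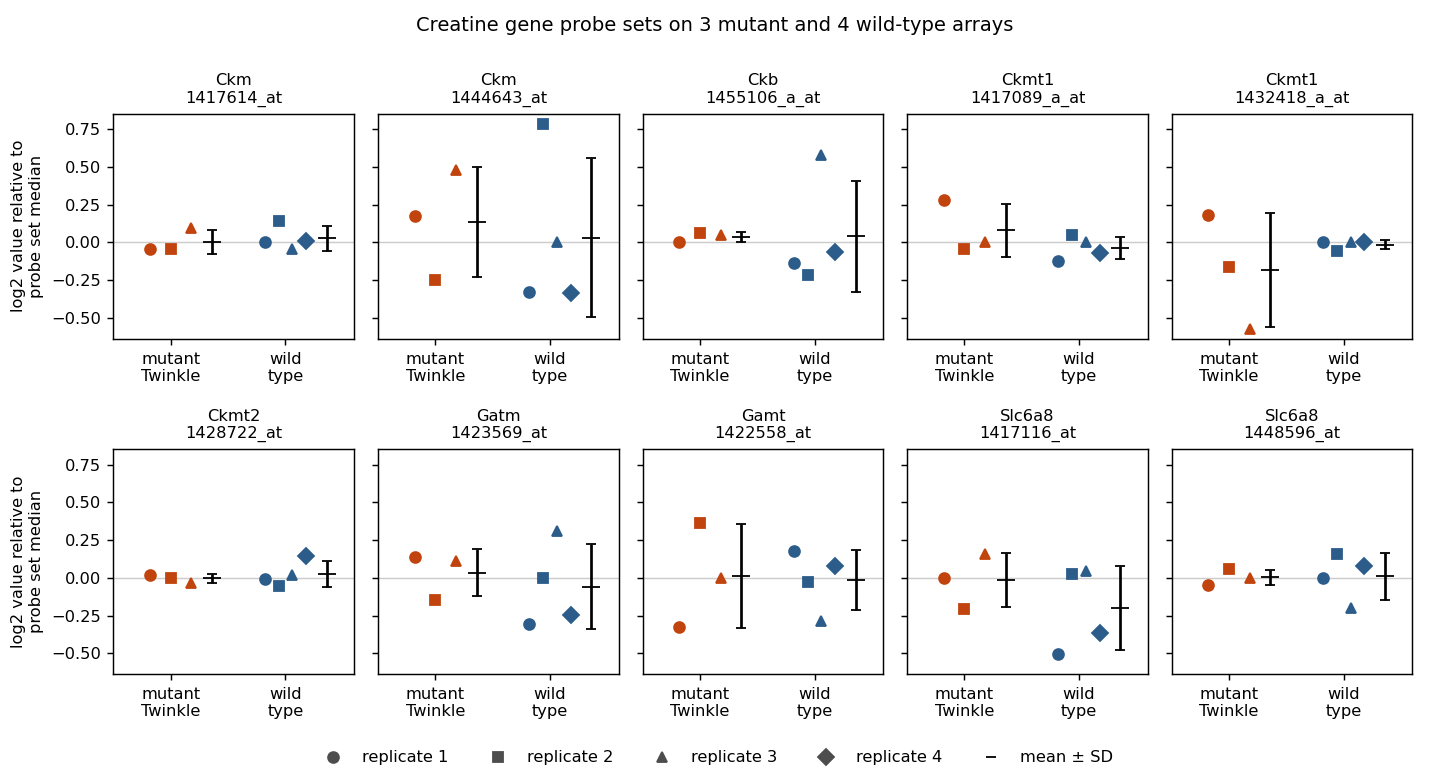
Log2 value relative to the probe set median (vertical axis, no unit beyond log2) of the 10 creatine probe sets on the 3 mutant and 4 wild-type arrays; symbols mark the replicate and the bars give mean ± SD. The mutant and wild-type points overlap in every panel, and Ckm 1417614_at and Ckmt2 are the panels in which all 7 arrays lie within 0.19 and 0.20 of each other.

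The promoter windows of Ckm and Ckmt2, the muscle forms, and of Ckb, a form of many other cells, are shown. Ckm is a textbook target of the muscle factors that bind E-boxes. Windows of 250 bases before the start were taken from RefSeq on build GRCm38.p6, which holds a window for 6 of the 7 genes. They are written 5′ to 3′ in the direction of transcription. Capitals mark the letters CANNTG, the E-box motif that myogenic factors such as MyoD and myogenin can bind, and TATAAA, the TATA box letters, in either direction.
Ckm, chr7:19410844-19411093, plus strand: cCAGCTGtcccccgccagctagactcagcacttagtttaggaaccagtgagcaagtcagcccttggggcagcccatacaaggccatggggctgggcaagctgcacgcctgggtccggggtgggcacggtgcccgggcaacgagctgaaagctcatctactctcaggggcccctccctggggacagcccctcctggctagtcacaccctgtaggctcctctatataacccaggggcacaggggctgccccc
Ckmt2, chr13:91876886-91877135, minus strand: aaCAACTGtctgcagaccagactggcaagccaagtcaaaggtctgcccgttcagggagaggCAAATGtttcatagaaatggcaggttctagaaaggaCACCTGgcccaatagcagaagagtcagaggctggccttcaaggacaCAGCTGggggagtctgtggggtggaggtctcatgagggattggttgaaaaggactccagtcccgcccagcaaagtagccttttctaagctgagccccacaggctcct
Ckb, chr12:111672339-111672588, minus strand: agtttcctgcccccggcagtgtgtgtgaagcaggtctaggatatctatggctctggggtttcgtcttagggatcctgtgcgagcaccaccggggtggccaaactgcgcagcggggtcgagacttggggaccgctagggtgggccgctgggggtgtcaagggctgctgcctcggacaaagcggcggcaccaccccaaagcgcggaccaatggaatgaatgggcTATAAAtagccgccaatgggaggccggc
The Ckmt2 window held 4 E-box matches, the Ckm window 1 and the Ckb window 0. At least 4 matches were found in 3.8% of all 32851 promoter windows of this length, and at least 1 in 66.2%. The TATAAA letters were found in the Ckb window and in 12.4% of all windows. Only these exact letters were searched for. Near forms, such as tatataa toward the end of the Ckm window, were left unmarked. Of the windows not shown, that of Gatm held 1 E-box match and those of Gamt and Ckmt1 held 0. The TATAAA letters were also found in 1 window of Ckmt1. The known muscle enhancer of Ckm lies further upstream than this window. A match of letters is a description and not a binding site, and its part in the values of these genes was not tested.

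Ckm is the most abundant creatine kinase transcript of fast muscle, and both of its probe sets lay in the top level class. Probe set 1417614_at lay at -0.04, -0.04 and 0.09 in mutant muscle, against 0.00, 0.15, -0.04 and 0.01 in wild type. It was nearly level across all 7 mice, with a highest over lowest array of 1.14-fold and an SD over the arrays below that of all but 3.49% of probe sets of its class. Its log2 difference was -0.02 ± 0.08 (SE), which is 0.98-fold with a 95% interval from 0.86-fold to 1.13-fold. The second probe set, 1444643_at, lay at 0.18, -0.25 and 0.48 in mutant muscle, against -0.33, 0.79, 0.00 and -0.33 in wild type. Here the array range was 2.17-fold, and the log2 difference of 0.10 ± 0.30 (SE) left an interval from -0.61 to 0.82. The 3 low arrays of this probe set were mutant replicate 2 and wild-type replicates 1 and 4, the same arrays that the first axis set apart. Within these 3 arrays, a set chosen from the data that holds 1 mutant array, mutant minus wild type was 0.08, and within the other 4 it was -0.07. These are values with no test.

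The gene value of Ckm, the mean of both probe sets, averaged 0.07 ± 0.22 over the 3 mutant arrays and 0.03 ± 0.30 over the 4 wild-type arrays (SD). The difference was 0.04 ± 0.18 (SE) on the log2 scale. Over the 7 arrays, both probe sets had a Pearson's r of 0.77 with each other. The difference had the sign of 1444643_at, the probe set with the wider spread, and was not stable. It was -0.07 without mutant replicate 3, -0.02 without wild-type replicate 1 or 4, and 0.18 without wild-type replicate 2.

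Ckmt2 couples ATP made in mitochondria to phosphocreatine at the inner membrane, and was the steadiest of the 7 genes. Its probe set lay in the top level class at 0.02, 0.00 and -0.03 in mutant muscle, against -0.01, -0.06, 0.02 and 0.14 in wild type. The mutant values lay inside the wild-type range. The log2 difference was -0.03 ± 0.08 (SE), or 0.98-fold with a 95% interval from 0.86-fold to 1.12-fold, and it turned to 0.01 without wild-type replicate 4. Its SD over the 7 arrays was 0.06, below that of all but 2.35% of the 3232 genes of its class, for which the median was 0.23. Near-level values were found in some other bright muscle genes too. Of 21 fast and general muscle fibre markers of the top class, the median range across the arrays was 0.53. Of these 21, only 2 had a range below the 0.20 of Ckmt2. They were Mylpf, a fast myosin light chain, at 0.12 and Tnnc2, the fast troponin C, at 0.17. Tnnc2 read exactly 0 in mutant replicate 1 and wild-type replicates 2, 3 and 4. A near-level probe set need not mean level RNA, since the 2 Ckm probe sets ranged over 1.14-fold and 2.17-fold on the same mice. Whether bright probe sets respond fully to changes in RNA was not tested.

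The same arrays differed widely in slow fibre genes. The 10 slow fibre markers, contractile and calcium genes of oxidative fibres, averaged 0.24, -0.01 and -0.09 in mutant muscle, against -3.29, -1.99, 0.66 and 0.55 in wild type. Wild-type replicates 1 and 2 thus lay far below the other 5 arrays, and there Ckmt2 lay at -0.01 and -0.06. Without these 2 arrays the Ckmt2 difference was -0.09 and did not pass. The 12 fast fibre markers averaged -0.14, 0.11 and -0.01 in mutant muscle, against 0.15, -0.03, -0.42 and 0.17 in wild type. In bulk muscle, fewer cells of a type and less RNA per cell cannot be told apart.

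**Figure D2:**
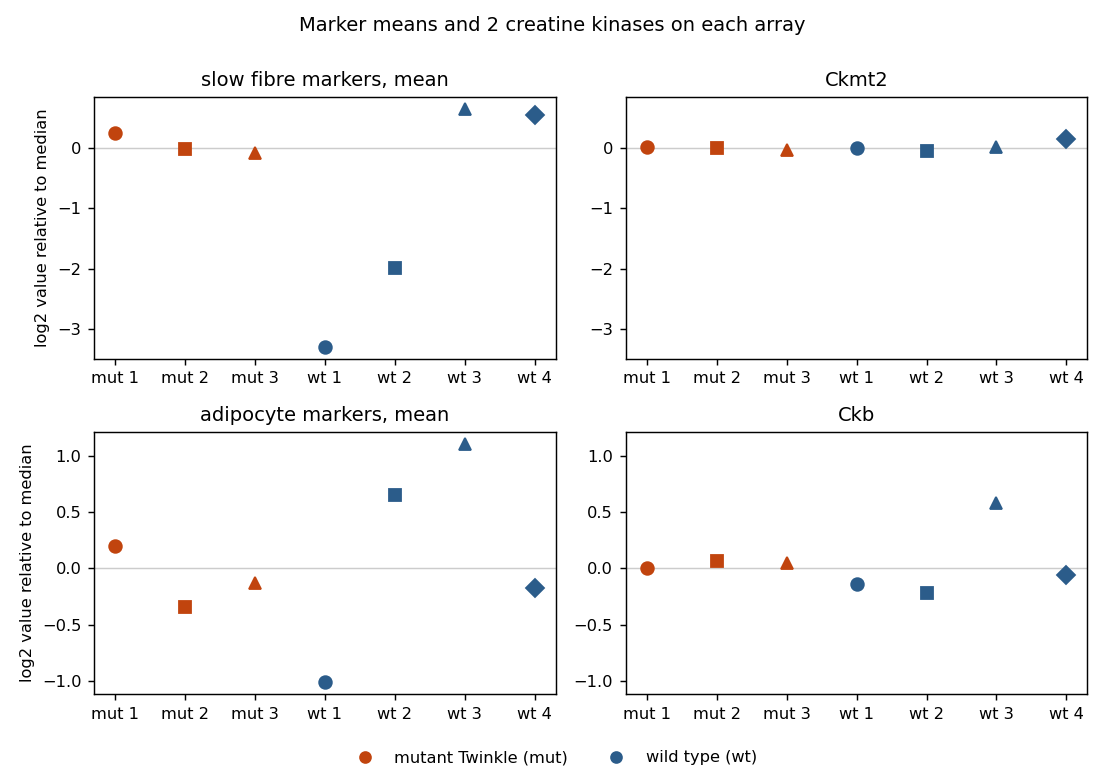
Mean of the slow fibre and adipocyte markers (left) and values of Ckmt2 and Ckb (right) on each array, as log2 values relative to the median; both panels of a row share one vertical scale. The slow fibre mean is -3.29 and -1.99 in wild-type replicates 1 and 2 where Ckmt2 is -0.01 and -0.06, and wild-type replicate 3 is highest in both lower panels.

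Ckb, the cytosolic form of brain, smooth muscle and many other cells, lay in the middle level class. It measured 0.00, 0.07 and 0.05 in mutant muscle, against -0.14, -0.22, 0.58 and -0.06 in wild type. The mutant arrays lay close together, above 3 of the wild-type arrays and below the fourth, wild-type replicate 3. The log2 difference was -0.00 ± 0.19 (SE) with a 95% interval from -0.45 to 0.44, and it ranged from -0.09 without wild-type replicate 2 to 0.18 without wild-type replicate 3. Wild-type replicate 3 also had the highest means of adipocyte (1.10), leukocyte (0.66), fibroblast (0.88) and nerve (0.27) markers and the lowest mean of muscle fibre markers (-0.51). The adipocyte mean was 0.20, -0.34 and -0.13 in mutant muscle, against -1.01, 0.65 and -0.18 in wild-type replicates 1, 2 and 4. In wild-type replicate 2 the adipocyte mean was the second highest of the 7 arrays while Ckb was the lowest, at -0.22. The fibroblast mean of wild-type replicate 2 was the lowest of the 7, at -0.32, and its leukocyte mean was 0.03. The smooth muscle mean of wild-type replicate 3 was -0.06, within the range of -0.10 to 0.08 over all arrays. The Gapdh control read 5 prime minus 3 prime was -0.55 in this array against at least -0.04 in the other 6, while the beta-actin control did not set it apart. The part of these markers in the Ckb value was not tested.

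Ckmt1, the mitochondrial form found mostly outside muscle, gave 2 probe sets of opposite sign. Probe set 1432418_a_at, in the middle level class with a class probability of 0.84, lay at 0.18, -0.16 and -0.57 in mutant muscle, against 0.00, -0.06, 0.00 and 0.00 in wild type. Mutant replicate 3 was low and the 4 wild-type arrays were nearly equal, with 3 of them at exactly the median value. The log2 difference was -0.17 ± 0.17 (SE), and 0.02 without mutant replicate 3. Without mutant replicate 1 it was -0.35 ± 0.13 (SE), with an unadjusted limma p of 0.032 and an adjusted p of 0.96. In that setting 531 of all 18193 genes had an unadjusted limma p under 0.05. Probe set 1417089_a_at, in the lowest level class, lay at 0.28, -0.04 and 0.00 in mutant muscle, against -0.12, 0.05, 0.00 and -0.07 in wild type. Its log2 difference was 0.11 ± 0.10 (SE), and 0.01 without mutant replicate 1. The differences thus leaned on a different mutant array in each probe set.

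**Figure D3:**
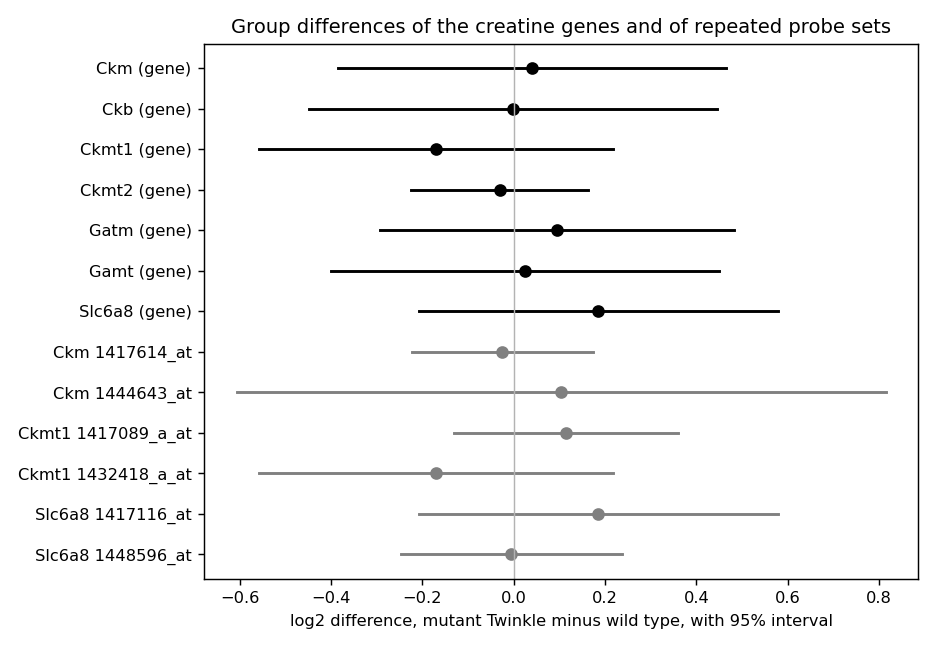
Log2 difference, mutant Twinkle minus wild type, with its 95% interval (horizontal axis), for the 7 genes (black) and for the probe sets of genes that have 2 (grey). Every interval spans 0, and the narrowest are those of Ckmt2 and of Ckm 1417614_at, while Ckm 1444643_at reaches from -0.61 to 0.82.

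The creatine synthesis enzymes did not differ between genotypes beyond their spread. Gatm, the enzyme of the first step, lay in the lowest level class at 0.14, -0.15 and 0.11 in mutant muscle, against -0.31, 0.00, 0.31 and -0.24 in wild type. Mutant replicate 2 and wild-type replicates 1 and 4 were its 3 lowest arrays. Its log2 difference was 0.09 ± 0.17 (SE) with a 95% interval from -0.29 to 0.48. Gamt, which uses S-adenosylmethionine to finish creatine, lay in the middle class at -0.33, 0.36 and 0.00 in mutant muscle, against 0.18, -0.03, -0.29 and 0.08 in wild type. The same 3 arrays were its highest. Its log2 difference was 0.03 ± 0.18 (SE) with a 95% interval from -0.40 to 0.45, and it turned to -0.15 without mutant replicate 2 and to -0.07 without wild-type replicate 3. Gatm and Gamt thus ran opposite to each other along the first axis, which both genotypes span. Mutant replicate 2 and wild-type replicates 1 and 4 also had the lowest adipocyte means (-0.34, -1.01 and -0.18). They were lowest too in leukocyte (-0.09, -0.35 and -0.26) and nerve (-0.10, -0.27 and -0.07) means. The fibroblast mean was lowest in wild-type replicate 2. Gatm had a Pearson's r of 0.91 with the leukocyte mean and -0.93 with the fast fibre mean. The part of these markers in the creatine gene values was not tested.

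Slc6a8, the sodium-dependent creatine transporter, had a positive difference in its brighter probe set that the second probe set did not share. Probe set 1417116_at, in the top class, lay at 0.00, -0.20 and 0.16 in mutant muscle, against -0.51, 0.03, 0.04 and -0.37 in wild type. Wild-type replicates 1 and 4 were lowest and mutant replicate 2 was next. The log2 difference was 0.19 ± 0.17 (SE), which is 1.14-fold with a 95% interval from 0.87-fold to 1.49-fold. It was 0.23 within those 3 arrays and 0.04 within the other 4, again with a single mutant array in the 3. Probe set 1448596_at, in the middle class, lay at -0.04, 0.06 and 0.00 in mutant muscle, against 0.00, 0.16, -0.20 and 0.08 in wild type. Here the log2 difference was -0.01 ± 0.10 (SE), and the 3 arrays were not the lowest.

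**Figure D4:**
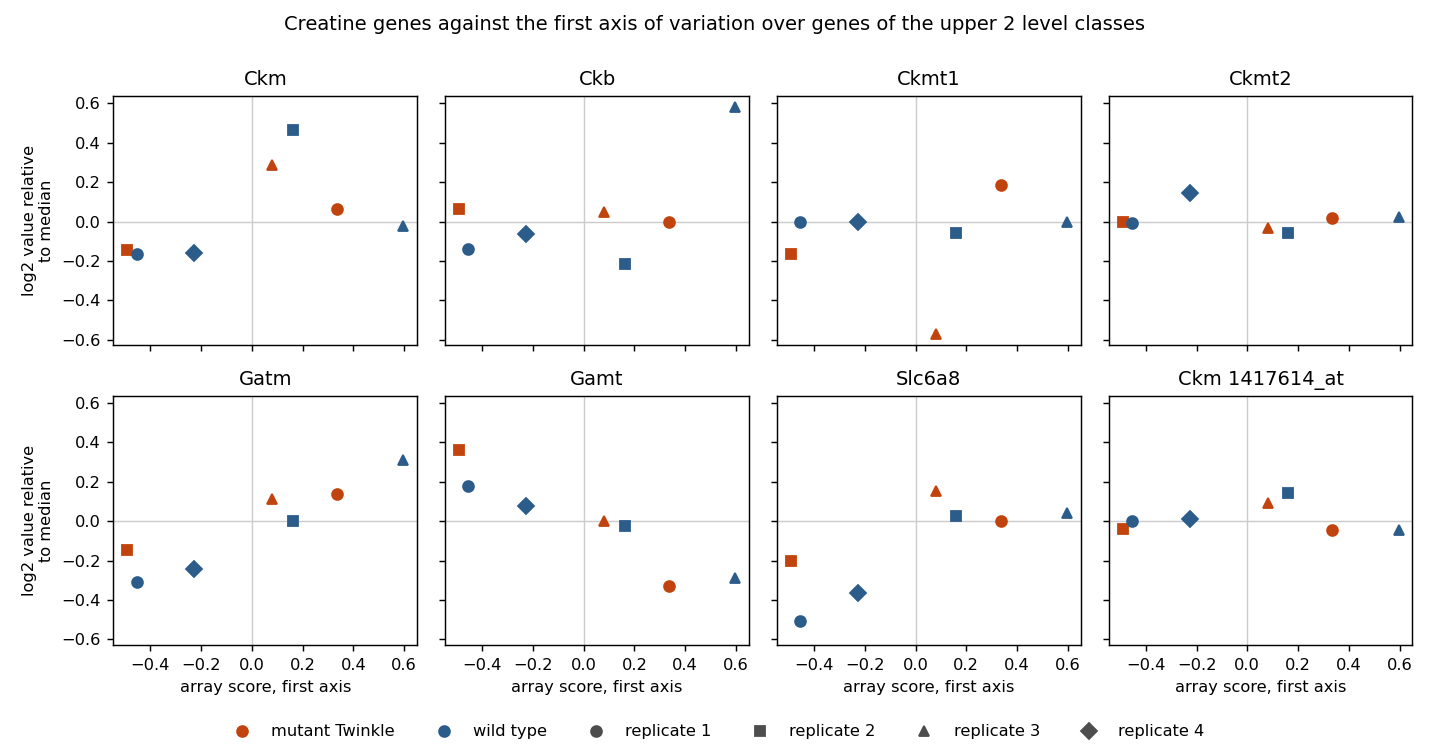
Log2 value of the 7 genes and of Ckm 1417614_at (vertical axis) against the array's score on the first axis of variation (horizontal axis, no unit), with mutant arrays in orange and wild-type arrays in blue. Gatm and Slc6a8 are lowest and Gamt is highest in the 3 arrays at the left (mutant replicate 2 and wild-type replicates 1 and 4), whereas Ckmt2 and Ckm 1417614_at stay near 0 across the axis.

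The genes most like each member over the 7 arrays were found by Pearson's r among genes of the same or a higher level class, as a description. Ckm was nearest to Gstm2 (r = 0.99), Jph2 (r = 0.98) and Mylk2 (r = 0.97) among 3231 genes. Its gene value averages 1417614_at and 1444643_at, whose SDs over the arrays were 0.07 and 0.43. The pattern matched is thus mostly that of 1444643_at. Jph2 ties the surface membrane to the calcium store in muscle, and Mylk2 is the myosin light chain kinase of skeletal muscle. Ckmt2 was nearest to Cbx1 (r = 0.97), Rara (r = 0.97) and Nfkbia (r = 0.94). Its value in wild-type replicate 4, 0.14, stood apart from -0.06 to 0.02 on the other arrays. Ckb was nearest to Ifngr1 (r = 0.99), AI661453 (r = 0.98) and Cyp4v3 (r = 0.98) among 12619 genes. Its value in wild-type replicate 3, 0.58, stood apart from -0.22 to 0.07 on the other arrays. Ckmt1 was nearest to Slc2a8 (r = 0.98), Etv4 (r = 0.97) and Eif1ad (r = 0.97). Its value is that of 1432418_a_at alone, with -0.57 in mutant replicate 3.

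Gatm was nearest to Nupr1, Rarres2 and Snx30 (r = 0.99 for each) among 18112 genes. Gamt was nearest to Sgcb (r = 1.00), Fundc1 (r = 0.99) and Zmym5 (r = 0.99), and Slc6a8 to Ap4s1 (r = 0.99), Ppp5c (r = 0.98) and Mrpl18 (r = 0.98). High r was common here, since 5% of genes exceeded r = 0.92 with Gamt, r = 0.90 with Slc6a8 and r = 0.85 with Gatm. For Ckmt2 this level was r = 0.48 and for Ckmt1 r = 0.55. All arrays share the first axis, and 7 arrays are few for such a measure.

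Genes that hand over high-energy phosphate beside creatine kinase were measured for 14 of 15 entries, and 0 passed in either direction. Their median log2 difference was -0.05, with 5 positive and 9 negative, beside 46.6% positive over all genes. The smallest p-values were those of Ak3, the adenylate kinase of the mitochondrial matrix, at -0.19 ± 0.16 (SE), Ampd2, an AMP deaminase, at -0.22 ± 0.20, and Vdac1, the outer membrane channel for ATP and ADP, at 0.12 ± 0.14. The difference of Ak3 turned to 0.08 with the mean of all its probe sets. Slc25a4, the ADP/ATP carrier of muscle mitochondria that works beside Ckmt2, differed by -0.04 ± 0.11. Ak1, the cytosolic adenylate kinase of muscle, differed by 0.04 ± 0.15. Both were chosen after their values were seen.

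M-line proteins that anchor the muscle kinase and the ion pumps it feeds were measured for 7 of 9 entries, and 0 passed. Their median was 0.18, with 5 positive and 2 negative, beside 46.6% positive over all genes. The list median dropped to 0.05 when mutant replicate 1 or 3 was left out and to 0.03 when wild-type replicate 2 was. It stood at 0.11 with the mean of all probe sets. Atp2a2, the calcium pump of slow fibres and also one of the slow fibre markers, differed by 0.82 ± 0.76 (SE), with -2.32 and -1.97 in wild-type replicates 1 and 2, and the difference turned to -0.52 without these 2 arrays. Atp1b2, a sodium pump subunit, differed by 0.23 ± 0.23, and by 0.05 without mutant replicate 3. Myom3, an M-band protein, differed by 0.24 ± 0.38. The Myom3 difference turned to -0.10 without mutant replicate 1, to -0.05 without wild-type replicate 2 and to -0.01 without wild-type replicates 1 and 2.

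Enzymes of arginine, glycine and methyl group metabolism were measured for 14 of 15 entries, and 0 passed. Their median was -0.02, with 6 positive and 8 negative, beside 46.6% positive over all genes. Some of them, such as Pemt, use these precursors or methyl groups, so the median is not a reading of supply. Ass1, an enzyme of arginine synthesis, differed by -0.18 ± 0.11 (SE), Pemt, a methyltransferase of phospholipid synthesis, by -0.23 ± 0.16, and Shmt2, which makes glycine from serine in mitochondria, by 0.16 ± 0.13. Shmt2 lay at 0.41 in mutant replicate 1, and its difference was 0.01 without that array.

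Kin of the creatine transporter and carriers of its precursors were measured for 8 of 9 entries, and 0 passed. Their median was 0.07, with 7 positive and 1 negative, beside 46.6% positive over all genes. No set test was run on these counts. Slc7a1, a carrier of arginine and other cationic amino acids, differed by 0.29 ± 0.17 (SE) and lay at 0.54 in mutant replicate 1. Its difference was 0.12 without that array. Slc6a6, the taurine transporter, differed by 0.11 ± 0.11 and Slc16a9, a member of the monocarboxylate carrier family, by 0.23 ± 0.26. The difference of Slc16a9 turned to -0.07 without mutant replicate 2.

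**Figure D5:**
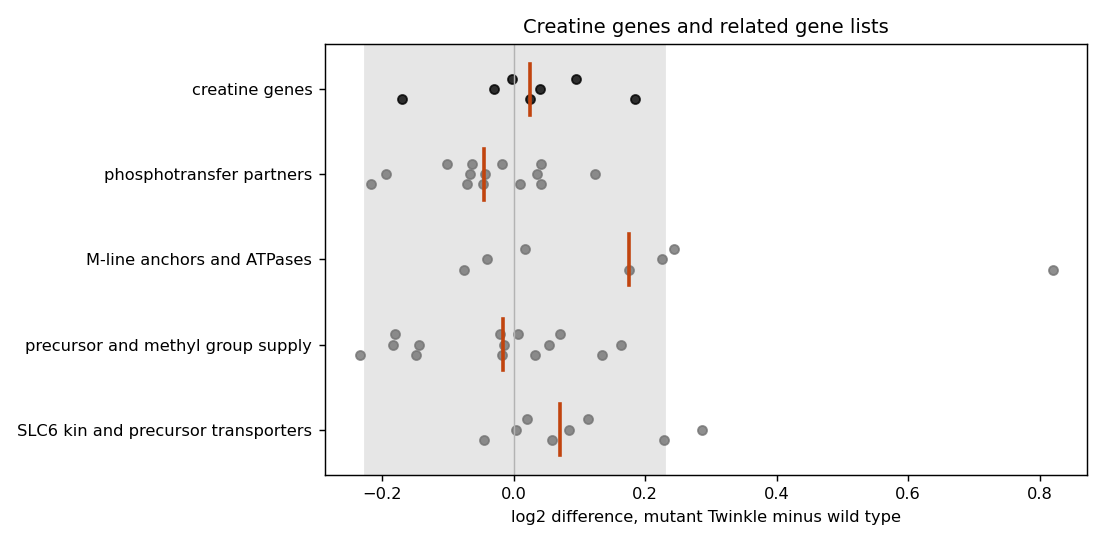
Log2 difference, mutant Twinkle minus wild type, of the 7 creatine genes (black) and of the genes of the 4 related lists (grey), with the list median as an orange bar; the shaded band spans the 5th to the 95th percentile of all 18193 genes, from -0.23 to 0.23. All 7 creatine genes lie inside the band, and Atp2a2 at 0.82 lies farthest outside it.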

How the data were processed

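Log2 values for 45101 probe sets on 7 Affymetrix arrays were deposited by the authors, each relative to the probe set's median, which was exactly 0 in all 45101. Per the submitters' processing notes GCOS 4.0 was used; the summary method, the scaling and the centring are not given in the sources used here. The log base of 2 was read from the number spacing, which fits levels between 2 and 16, and is not stated. The same spacing gave each probe set's most probable level class; its probability was over 0.9 in 83.6% of probe sets.

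Symbols came from the platform annotation, which is old, and were updated through Entrez identifiers with RefSeq GRCm38.p6. Of the probe sets 34958 had 1 symbol, 932 several and 9211 none. Probe sets of a gene were averaged after keeping those of its highest class. The deposited files name no genome build; the promoter windows carry coordinates of RefSeq's GRCm38.p6.

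The comparison of 3 mutant with 4 wild-type arrays used limma 3.58.1 (R 4.3.3; lmFit and eBayes, two-sided, with neither covariate nor filter). Benjamini-Hochberg adjustment ran over 18193 genes or, per probe set, over 45037 non-control probe sets, with a threshold of 0.05. The code was tested on simulated data. The fit's errors cover the spread between mice, and the number of arrays limits the precision. Beside the 7 members, the text names the 3 genes of smallest p in each of 4 lists, the 3 genes nearest to each member, Twnk and Fgf21. Slc25a4, Ak1, Mylpf and Tnnc2 were chosen after their values were seen. The members, the lists and the naming rule were chosen with earlier results of these data known. Alternatives were another choice of probe sets, a level filter, quantile normalization, a variance trend, age, replicate blocks, left-out arrays and, added after seeing the data, a block of 3 arrays.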

Additional observations from a re-analysis of the deposited data

Results flagged for a closer look

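Among 37 sets of 4 wild-type values checked for a sample far from the others, 1 stood out. Ckmt1 lay at -0.057 in wild-type replicate 2, while the other 3 wild-type arrays were equal at 0. With 3 equal values any distance of the fourth is flagged, so this flag does not measure how far wild-type replicate 2 lay. Chance flags about 1 in 20 sets without equal values, and this rate does not apply here. The distance of 0.057 is small beside the spread of the 3 mutant arrays, which lay at 0.18, -0.16 and -0.57.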

How the results depend on the processing

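Under the 16 alternatives, 0 genes, 0 creatine genes and 0 genes of the 4 lists had a limma adjusted p under 0.05, and the smallest adjusted p over all genes was 0.33, without wild-type replicate 1. Member probe sets were refitted in 9 alternatives and 0 were called. Genes with an unadjusted p under 0.05 numbered 257 and ran from 98 with the replicate block to 907 with the block of 3 arrays added after seeing the data. Of creatine and list genes, Ckmt1 (-0.35) passed this line without mutant replicate 1, where 531 of all 18193 genes did. Ak3 (-0.35) and Pemt (-0.42) passed it without mutant replicate 2, where 581 of all genes did. Ampd2 (-0.29) and Ass1 (-0.22) passed it with the block of 3 arrays, where 907 did. Atp2a2 passed it without wild-type replicates 1 and 2, where 293 did.

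Several log2 differences changed sign. Not all of these were near 0, since the comparison above gave 0.82 for Atp2a2, 0.24 for Myom3 and -0.19 for Ak3. Quantile normalization acted on the deposited values relative to the probe set median, since no levels were available. With it the differences were 0.050 for Ckb, -0.043 for Gamt and -0.031 for Twnk. The titles name no pairs, so the replicate numbers were not taken as pairs. Deviations of same-numbered arrays from their group means correlated at -0.50, -0.32 and 0.13 for replicates 1, 2 and 3. These values cannot decide whether the numbers mark pairs, since the first axis alone held 54.3% of the variance. With the replicate block, which drops wild-type replicate 4, differences were -0.024 for Ckm, 0.0095 for Ckmt2, -0.017 for Ckm 1444643_at and 0.018 for Slc6a8 1448596_at. With the block of 3 arrays they were -0.020 for Ckm, -0.0061 for Ckm 1444643_at and 0.0061 for Slc6a8 1448596_at. Ak3 was at 0.078 with the mean of all probe sets. Without wild-type replicates 1 and 2, Atp2a2 was at -0.52, Myom3 at -0.0055 and the median of the transporter list at 0.21. Leaving out 1 array at a time gave ranges of -0.069 to 0.18 for Ckm, -0.087 to 0.18 for Ckb, -0.35 to 0.024 for Ckmt1, -0.058 to 0.0095 for Ckmt2, -0.15 to 0.19 for Gamt, -0.10 to 0.44 for Myom3, -0.066 to 0.41 for Slc16a9, -0.13 to 0.17 for Twnk, 0.051 to 0.41 for Atp1b2, 0.048 to 0.23 for Vdac1, -0.34 to -0.045 for Ampd2, 0.052 to 0.18 for Slc6a6, 0.012 to 0.22 for Gatm, 0.083 to 0.28 for Slc6a8, -0.070 to 0.014 for Ckm 1417614_at, -0.067 to 0.36 for Ckm 1444643_at, -0.35 to 0.024 for Ckmt1 1432418_a_at and -0.075 to 0.045 for Slc6a8 1448596_at. The causes of these changes were not tested. Centring removed the levels, so signal over background could not be set beside these values.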
